A study of Mus musculus with 9 samples.

Results

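The hemoglobin and heme breakdown genes of the retina were 9 genes of the 26683 in the deposited count table, chosen by name: the heme oxygenases Hmox1 and Hmox2, the biliverdin reductases Blvra and Blvrb, the adult alpha globins Hba-a1 and Hba-a2, the adult beta globins Hbb-bs and Hbb-bt, and Alas2. All 9 had a row in the table and all 9 passed the filter on low counts. Their choice followed earlier results of these data in which Hmox1 was among the largest differences between PBS and Normoxic retinas and Hbb-bs was also named, so their levels against Normoxic are given below as a description, without a p-value. The comparison of Gel with PBS uses the same PBS libraries, so that choice itself favours a difference there. Its p-values for these genes are therefore no independent support.

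RNA was sequenced from mouse retinas in 9 libraries of 3 groups of 3. The Gel group had oxygen-induced retinopathy (OIR) and an injection of PCC1/PHCF hydrogel, which releases procyanidin C1 (PCC1), into the vitreous at postnatal day 15, the PBS group had OIR and phosphate-buffered saline injected on the same day, and the Normoxic group is not said to have been injected. All retinas were taken at postnatal day 17, no group received the gel without PCC1, and strain, sex, oxygen schedule and pooling of retinas are not stated. Whether replicates are separate animals is likewise unstated, and p-values therefore measure only the spread between these samples.

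Red blood cells carry oxygen on hemoglobin, a tetramer of alpha and beta globin chains that each hold a heme group. Heme from broken-down red cells or from a cell's own proteins is opened by heme oxygenase to biliverdin, iron and carbon monoxide, and biliverdin reductase then makes bilirubin. Hmox1 is the inducible heme oxygenase. Heme and oxidants switch it on through the transcription factor NRF2 and release from the repressor BACH1, and low oxygen can induce it too. Hmox2 is the constitutive form, abundant in neurons. In OIR, newborn mice lose retinal capillaries under high oxygen, and after their return to normal air the retina becomes hypoxic and grows fragile tufts of vessels that can bleed. Globin transcripts in a piece of tissue can come from blood in its vessels, from bleeding, or from low expression in tissue cells, and in bulk RNA fewer cells of a type and less RNA per cell cannot be told apart.

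The regulatory sequences of the hemoglobin genes are shown because these genes varied together across the libraries. The RefSeq promoter table of build GRCm38.p6 holds 8 of the 9 genes, and the 250 bases before the transcription start of 4 of them follow, read 5′ to 3′ on the strand of the gene. Capitals mark GATA (the core bound by GATA factors), CACCC (bound by the erythroid factor KLF1 and its relatives), CCAAT (the CCAAT box, bound by NF-Y) and ATATAA (a form of the TATA box), each searched on both strands, so that reverse complements are in capitals too.
Hba-a1, chr11:32283422-32283671, plus strand: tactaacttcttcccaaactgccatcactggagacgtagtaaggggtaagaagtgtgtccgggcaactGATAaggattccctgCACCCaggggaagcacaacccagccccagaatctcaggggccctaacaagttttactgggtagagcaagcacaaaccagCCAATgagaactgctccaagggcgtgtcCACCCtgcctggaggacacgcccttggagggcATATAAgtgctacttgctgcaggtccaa
Hbb-bs, chr7:103827929-103828178, minus strand: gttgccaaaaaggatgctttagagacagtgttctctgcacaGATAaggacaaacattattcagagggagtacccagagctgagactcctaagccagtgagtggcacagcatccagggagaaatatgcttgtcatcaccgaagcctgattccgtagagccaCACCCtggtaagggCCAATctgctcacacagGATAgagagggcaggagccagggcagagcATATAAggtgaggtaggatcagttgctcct
Hbb-bt, chr7:103813924-103814173, minus strand: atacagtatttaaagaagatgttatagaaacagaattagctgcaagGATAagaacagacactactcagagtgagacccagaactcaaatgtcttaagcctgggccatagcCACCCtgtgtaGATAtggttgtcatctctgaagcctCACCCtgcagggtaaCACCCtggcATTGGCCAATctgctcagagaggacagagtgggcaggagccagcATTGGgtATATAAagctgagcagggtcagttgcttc
Alas2, chrX:150547167-150547416, plus strand: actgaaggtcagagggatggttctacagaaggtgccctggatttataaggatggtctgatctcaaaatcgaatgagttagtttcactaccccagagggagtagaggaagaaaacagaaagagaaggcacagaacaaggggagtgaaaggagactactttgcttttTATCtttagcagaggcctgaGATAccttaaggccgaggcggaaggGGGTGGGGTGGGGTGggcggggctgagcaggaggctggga
The 4 hemoglobin promoters each held all 4 motifs, as did 336 of all 32851 promoters of the table over the same length (1.02%). Singly, GATA was present in 53.6% of those promoters, CACCC in 52.0%, CCAAT in 33.8% and ATATAA in 9.1%, so the first 3 are common by their letters alone. The Alas2 window held GATA and CACCC but neither CCAAT nor ATATAA. In Hbb-bt a reverse complement of CCAAT lies directly before a forward match, without overlap. The Hba-a2 promoter shared a run of 247 identical bases with that of Hba-a1, shifted by the start site, and is therefore not printed. A match of letters is a description and not evidence that a factor binds there.

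The paired alpha globin genes are near-identical copies, and the paired beta globin genes are similar but less so. Transcripts of Hba-a1 and Hba-a2 in GENCODE M21 matched at 537 of 538 aligned bases (99.8%), with a longest shared run of 415 bases. Transcripts of Hbb-bs and Hbb-bt matched at 580 of 626 bases (92.7%), with a longest shared run of 430 bases. The sources used here do not say how reads were divided between the copies, so the split within each pair is uncertain and the sums are the firmer values.

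Hmox1 (Entrez 15368) was the member whose level separated the 3 groups. It had 7.41, 8.02 and 7.68 CPM (counts per 1000000 of the library total) in Gel replicates 1 to 3, 85.8, 21.9 and 36.1 CPM in PBS replicates 1 to 3, and 2.63, 2.28 and 2.74 CPM in Normoxic replicates 1 to 3. All 3 PBS libraries lay above all 3 Gel libraries, and these lay above all 3 Normoxic libraries. The mean level was 7.70 ± 0.307 CPM for Gel, 47.9 ± 33.6 CPM for PBS and 2.55 ± 0.243 CPM for Normoxic (SD, n = 3 each). The PBS libraries differed widely among themselves, with a coefficient of variation of 70.0%, against 3.99% in Gel and 9.53% in Normoxic. The fitted log2 fold change was 4.25 ± 0.44 (SE) for PBS versus Normoxic, a 19.0-fold difference, and 1.61 ± 0.42 for Gel versus Normoxic, a 3.05-fold difference. Without PBS 1, the library with the highest level, the first of these was 3.53. The share of all tested genes whose libraries separate in this way is not given, here or for the separations described below. Separation is therefore not shown to be particular to Hmox1. Nupr1, for example, had means in the same order: 6.13 ± 0.539 CPM in Gel, 17.8 ± 6.73 CPM in PBS and 2.39 ± 0.184 CPM in Normoxic.

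Between Gel and PBS, the comparison of the drug gel with saline in OIR retina, the Hmox1 level was lower in Gel by a log2 fold change of -2.64 ± 0.40, but this did not pass the edgeR quasi-likelihood test (adjusted p = 0.166). No gene did: edgeR called 0 higher (0%) and 0 lower (0%) of 17362 tested genes in Gel versus PBS at an adjusted p under 0.05. At an unadjusted p under 0.05 there were 961, and DESeq2 called 64, edgeR without a filter 24 and limma-voom 0. The call for Hmox1 turned on the setting, in a comparison that shares the PBS libraries behind the choice of this gene. It passed in 5 of 15 alternatives, with an adjusted p of 1.18e-08 in DESeq2, 0.000557 in edgeR without a low-count filter, and 0.0371, 0.00569 and 0.0426 in edgeR without PBS 1, PBS 2 or PBS 3, and it did not in the other 10, where the adjusted p reached 0.723 without Gel 1. The log2 fold change stayed between -2.99 and -1.93 in all of them.

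Hmox2 (Entrez 15369), the constitutive heme oxygenase, showed no such separation. It had 29.2, 40.0 and 43.7 CPM in Gel, 37.4, 37.9 and 52.2 CPM in PBS and 41.9, 38.9 and 38.4 CPM in Normoxic, and the 3 groups overlapped. Its log2 fold change was 0.11 ± 0.18 for PBS versus Normoxic, -0.18 ± 0.18 for Gel versus PBS (edgeR adjusted p = 0.987) and -0.07 ± 0.18 for Gel versus Normoxic. The makeup of the heme oxygenase transcripts therefore differed by group. Per length, on the FPKM scale (fragments per kilobase of gene length and per 1000000 counts), Hmox1 made up 25.7%, 21.5% and 19.3% of the sum of both heme oxygenases in Gel, 75.8%, 44.0% and 48.5% in PBS, and 7.88%, 7.39% and 8.87% in Normoxic. Hmox2 was the more abundant of the pair in every library except PBS 1.

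The biliverdin reductases also differed from each other, on a smaller scale and without a separation of Gel from Normoxic. Blvrb (Entrez 233016), which also acts as a flavin reductase in red cells, had 3.67, 5.33 and 4.72 CPM in Gel, 7.52, 5.96 and 9.48 CPM in PBS and 3.61, 4.15 and 2.65 CPM in Normoxic. The PBS libraries lay above all Gel and all Normoxic libraries, while Gel and Normoxic overlapped. Its log2 fold change was 1.16 ± 0.25 for PBS versus Normoxic, -0.75 ± 0.25 for Gel versus PBS (edgeR adjusted p = 0.683) and 0.41 ± 0.25 for Gel versus Normoxic. Blvra (Entrez 109778), which converts the main form of biliverdin in adult tissue, had 8.92, 11.4 and 12.5 CPM in Gel, 8.98, 10.8 and 13.9 CPM in PBS and 10.3, 8.80 and 8.46 CPM in Normoxic, with all groups overlapping. The Blvra log2 fold change was 0.31 ± 0.20 for PBS versus Normoxic, -0.04 ± 0.19 for Gel versus PBS (edgeR adjusted p = 0.989) and 0.27 ± 0.20 for Gel versus Normoxic. The ratio of Blvrb to Blvra counts was 0.418 ± 0.0458 in Gel, 0.690 ± 0.143 in PBS and 0.379 ± 0.0830 in Normoxic (SD, n = 3 each), and no PBS ratio overlapped another group.

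**Figure D1:**
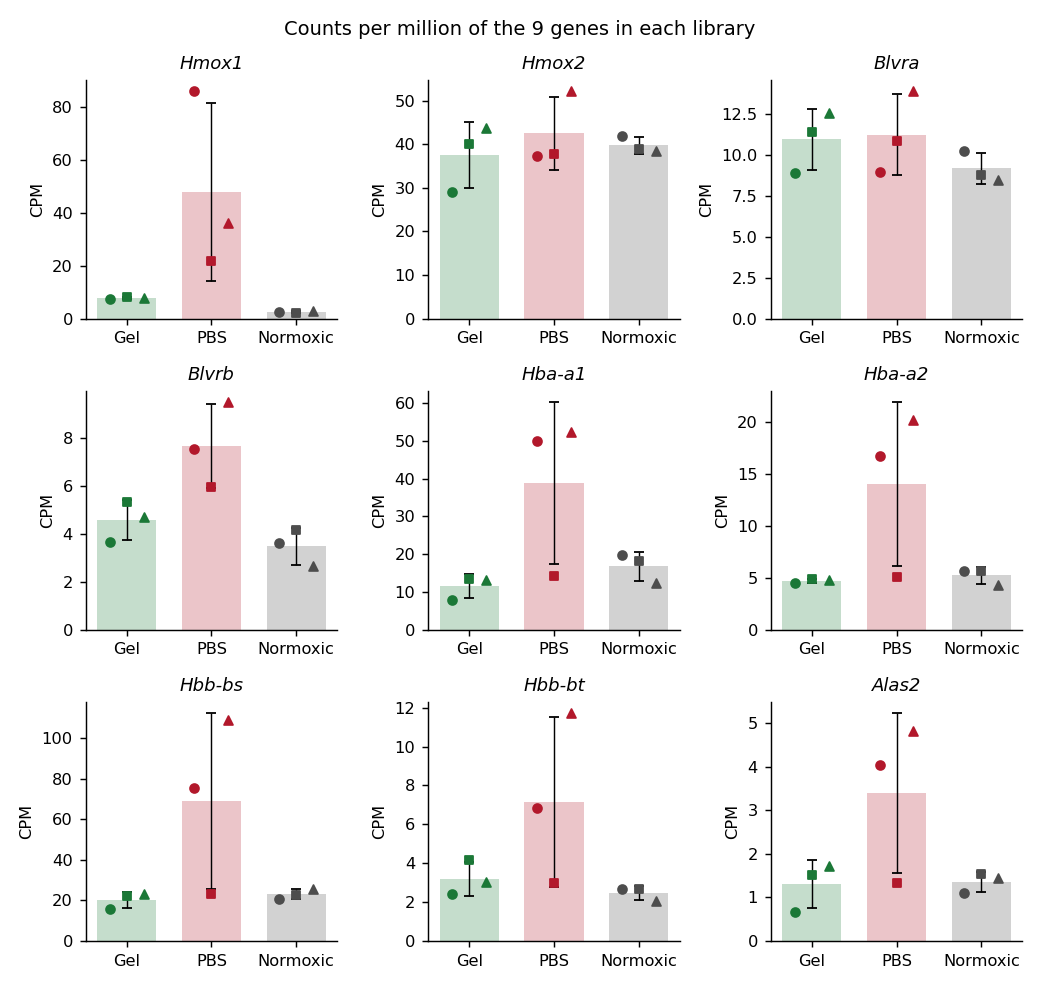
CPM (linear axis from 0) of each of the 9 genes in Gel, PBS and Normoxic, with circles, squares and triangles for replicates 1, 2 and 3, bars for the mean and whiskers for 1 SD (n = 3). Hmox1 separates the 3 groups, Hmox2 and Blvra do not, and the hemoglobin genes and Alas2 are high in PBS 1 and PBS 3 while PBS 2 lies near the Gel and Normoxic libraries.

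The hemoglobin genes were high in PBS 1 and PBS 3 alone among the 9 libraries. The sum of the 4 genes was 30.4, 44.6 and 43.9 CPM in Gel, 149.0, 45.3 and 193.1 CPM in PBS, and 49.0, 49.0 and 44.6 CPM in Normoxic. PBS 2 lay within the Normoxic range, and no Gel library exceeded 44.6 CPM. The mean sum was 39.6 ± 7.99 CPM for Gel, 129.1 ± 75.9 CPM for PBS and 47.5 ± 2.51 CPM for Normoxic (SD, n = 3 each), and the SD within PBS was close to its distance from the other group means.

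Hbb-bs (Entrez 100503605), the more abundant beta globin, had 15.7, 22.0 and 23.0 CPM in Gel, 75.4, 23.0 and 108.9 CPM in PBS, and 20.8, 22.4 and 25.8 CPM in Normoxic. Its log2 fold change was 1.61 ± 0.43 for PBS versus Normoxic, -1.79 ± 0.43 for Gel versus PBS (edgeR adjusted p = 0.576) and -0.17 ± 0.42 for Gel versus Normoxic. Hbb-bt (Entrez 101488143), the minor beta globin, had 2.42, 4.15 and 3.03 CPM in Gel, 6.82, 2.96 and 11.7 CPM in PBS, and 2.69, 2.65 and 2.06 CPM in Normoxic. PBS 2 lay beside Gel 3 in Hbb-bs and within the Gel range in Hbb-bt. The Hbb-bt log2 fold change was 1.57 ± 0.43 for PBS versus Normoxic, -1.18 ± 0.42 for Gel versus PBS (edgeR adjusted p = 0.763) and 0.39 ± 0.43 for Gel versus Normoxic.

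Hba-a1 (Entrez 15122), the more abundant alpha globin in these counts, had 7.81, 13.6 and 13.1 CPM in Gel, 50.0, 14.1 and 52.3 CPM in PBS, and 19.8, 18.2 and 12.4 CPM in Normoxic. Hba-a2 (Entrez 110257), the second alpha globin gene, had 4.48, 4.85 and 4.78 CPM in Gel, 16.7, 5.11 and 20.2 CPM in PBS, and 5.69, 5.69 and 4.31 CPM in Normoxic. PBS 2 lay inside the Normoxic range for both alpha globins. The log2 fold change of Hba-a1 was 1.24 ± 0.42 for PBS versus Normoxic, -1.77 ± 0.42 for Gel versus PBS (edgeR adjusted p = 0.576) and -0.53 ± 0.42 for Gel versus Normoxic. That of Hba-a2 was 1.45 ± 0.40 for PBS versus Normoxic, -1.59 ± 0.40 for Gel versus PBS (edgeR adjusted p = 0.576) and -0.14 ± 0.40 for Gel versus Normoxic.

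Calls of Hba-a1, Hba-a2 and Hbb-bs between Gel and PBS depended on PBS 2 and on the processing. Without PBS 2 the edgeR adjusted p was 0.0120 for Hba-a1, 0.00569 for Hba-a2 and 0.00569 for Hbb-bs, at log2 fold changes of -2.17, -1.99 and -2.21, while Hbb-bt stayed at 0.172. Outside that setting, Hba-a1 and Hbb-bs passed with no low-count filter (adjusted p = 0.0446 each) and Hba-a2 with DESeq2 (0.0182). Each of these 3 genes failed in its other 13 of 15 alternatives. Leaving out PBS 3, in turn, brought the Hbb-bt log2 fold change for Gel versus PBS to -0.59.

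Alas2 (Entrez 11656) encodes the heme synthesis enzyme of erythroid cells and followed the globins. It had 0.673, 1.51 and 1.72 CPM in Gel, 4.05, 1.33 and 4.81 CPM in PBS, and 1.09, 1.54 and 1.44 CPM in Normoxic, resting on 20 to 171 counts per library. PBS 1 and PBS 3 stood above all other libraries, and PBS 2 lay within the Normoxic range. The Alas2 log2 fold change was 1.35 ± 0.48 for PBS versus Normoxic, -1.39 ± 0.48 for Gel versus PBS (edgeR adjusted p = 0.722) and -0.04 ± 0.49 for Gel versus Normoxic.

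Per length, Hbb-bs had the highest FPKM of the 9 genes in each group, at 31.7 ± 6.20 in Gel, 108.1 ± 67.7 in PBS and 36.0 ± 4.00 in Normoxic (SD, n = 3 each). Hba-a1 came next in each group, at 20.5 ± 5.71 FPKM in Gel, 69.5 ± 38.3 FPKM in PBS and 30.1 ± 6.91 FPKM in Normoxic, which in PBS and Normoxic was nearer to Hbb-bs than the larger SD of the pair. Hmox1 stood at 4.89 ± 0.195 FPKM in Gel, 30.4 ± 21.3 FPKM in PBS and 1.62 ± 0.154 FPKM in Normoxic, which placed it below Hmox2, Blvra and Blvrb in Normoxic and above all 3 of their means in PBS. Alas2 was lowest in each group, at 0.657 ± 0.280 FPKM in Gel, 1.71 ± 0.922 FPKM in PBS and 0.683 ± 0.118 FPKM in Normoxic.

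The question was whether Hmox1 tracked the hemoglobin genes across libraries. In group means both were highest in PBS, but single libraries parted. In PBS 2 the hemoglobin sum was 0.952 times the Normoxic mean while Hmox1 was 8.58 times its Normoxic mean. In Gel 1, 2 and 3 the hemoglobin sum was 0.640, 0.938 and 0.923 times the Normoxic mean and Hmox1 was 2.91, 3.15 and 3.01 times. In PBS 1 the hemoglobin sum was 3.13 times and Hmox1 33.7 times the Normoxic mean, and in PBS 3 they were 4.06 and 14.2 times. Hmox1 was thus above Normoxic in all 6 OIR libraries, the hemoglobin sum in 2 of them, and PBS 3, with the most hemoglobin RNA, had less Hmox1 than PBS 1.

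**Figure D2:**
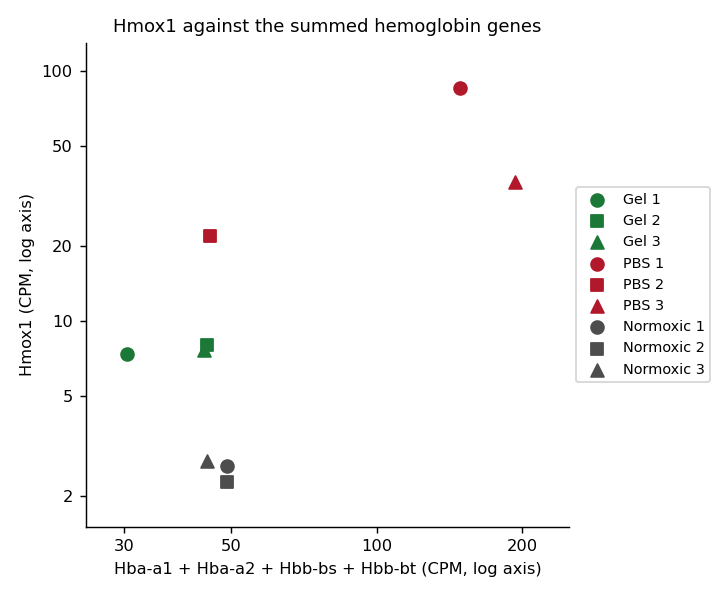
Hmox1 (CPM, log axis) against the summed CPM of Hba-a1, Hba-a2, Hbb-bs and Hbb-bt (log axis), 1 point per library, with colours for groups and shapes for replicates. Gel, PBS and Normoxic lie in separate bands of Hmox1, and PBS 2, Gel 2, Gel 3 and the Normoxic libraries share a hemoglobin sum of 43.9 to 49.0 CPM while their Hmox1 runs between 2.28 and 21.9 CPM.

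Because Hmox1 fell into separate clusters by group, a correlation pooled over groups also holds the difference between them, and the relation was tested within groups. As deviations from group means (log2 CPM with a prior count of 2, n = 9), Hmox1 and the hemoglobin sum had a Pearson r of 0.638 (exact permutation within groups, two-sided p = 0.56, adjusted p = 0.739 over 6 relations). Spearman's rho was 0.317 (exact permutation p = 0.542, adjusted p = 0.782). Within groups the relation was thus not distinguishable from none at this number of libraries, where 216 permutations allow a p no lower than 0.00463. The test could hardly decide the question, because the spread of Hmox1 within groups lay mostly in the 3 PBS libraries. Even the r of 0.935 without PBS 3 had an exact permutation p of 0.292. Without PBS 1 and PBS 3, the 2 libraries farthest from the median hemoglobin sum, PBS 2 sits at its own group mean and r, now over the spread within Gel and Normoxic, was 0.170 (exact permutation p = 0.583). Leaving out single libraries gave r of 0.935 without PBS 3, 0.903 without PBS 1 and -0.455 without PBS 2, values that largely restate the direction between the PBS libraries that remain, and the other 6 ran between 0.638 and 0.650. Over the 6 OIR libraries alone without centring, which adds the difference between Gel and PBS, r with the hemoglobin sum was 0.858 (exact permutation p = 0.0264, adjusted p = 0.0521) and rho 0.943 (exact permutation p = 0.0167, adjusted p = 0.0333). By that measure Hba-a1 passed the threshold (r = 0.889, exact permutation adjusted p = 0.0417), and without PBS 1 and PBS 3 the r with the sum was 0.433. The other relations within groups had r of 0.661 for Hba-a1, 0.654 for Hba-a2, 0.605 for Hbb-bs, 0.430 for Hbb-bt and 0.561 for Alas2 (exact permutation, adjusted p between 0.739 and 0.745).

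**Figure D3:**
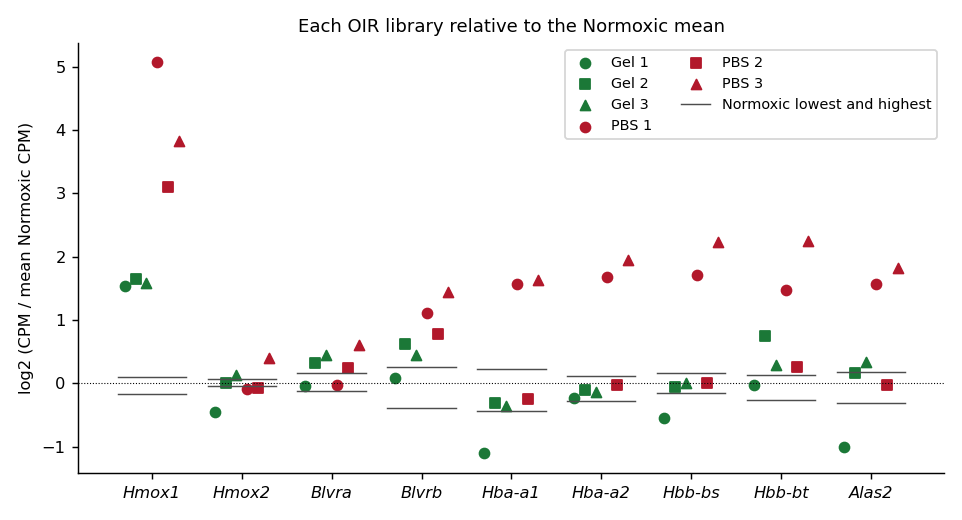
Log2 of CPM over the mean Normoxic CPM for each of the 9 genes in each Gel and PBS library, with the lowest and highest Normoxic library as grey lines. Hmox1 is above the Normoxic lines in all 6 OIR libraries, whereas the hemoglobin genes and Alas2 are far above them in PBS 1 and PBS 3 alone.

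Among themselves the hemoglobin genes and Alas2 kept closer proportions than with Hmox1. Their 10 pairwise correlations of deviations from group means ranged between 0.797 and 0.939 (n = 9, a description, in libraries that share PBS 1 and PBS 3 as the extremes). The ratio of Hbb to Hba counts ran between 0.924 in Normoxic 1 and 1.66 in Normoxic 3, with a median of 1.42 over 9 libraries, and the ratio of Alas2 to the 4 hemoglobin genes between 0.0221 and 0.0392, a 1.77-fold range. Within the pairs, where the split of reads is uncertain, the ratio of Hba-a2 to Hba-a1 varied 1.99-fold and that of Hbb-bt to Hbb-bs 2.36-fold. The ratio of Hmox1 to the hemoglobin genes varied 12.4-fold, being 0.243, 0.180 and 0.175 in Gel, 0.576, 0.483 and 0.187 in PBS, and 0.0536, 0.0465 and 0.0614 in Normoxic. By this ratio PBS 2 resembled PBS 1, and PBS 3 resembled the Gel libraries. Blvrb had a correlation of deviations of 0.722 with the hemoglobin sum and of 0.176 with Hmox1 (n = 9, a description).

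**Figure D4:**
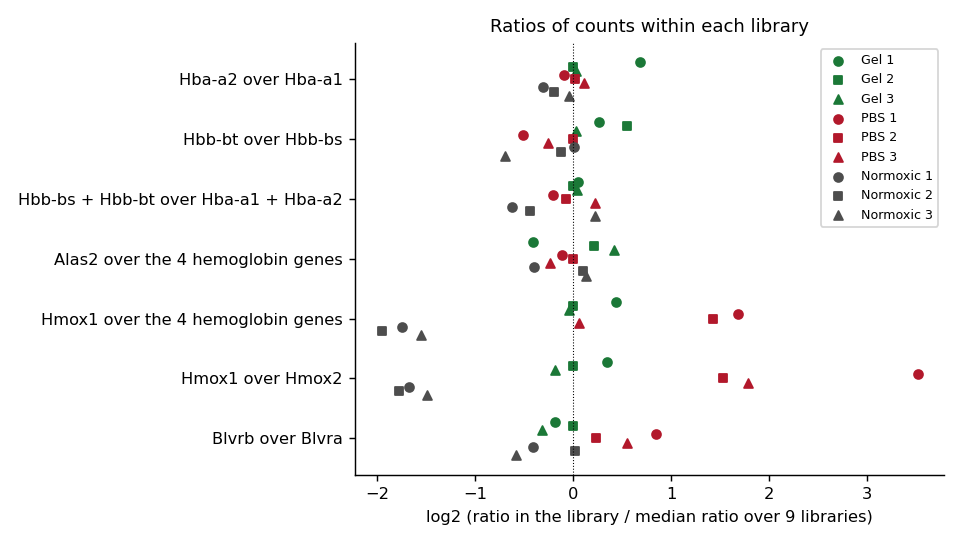
Log2 of 7 ratios of counts within each library, each relative to its median over the 9 libraries, with colours for groups and shapes for replicates. Ratios among the hemoglobin genes and Alas2 stay within 1 log2 unit of 0 in all libraries, while ratios with Hmox1 on top spread more widely, with Normoxic lowest and PBS 3 beside the Gel libraries for Hmox1 over the hemoglobin genes.

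The genes most like Hmox1 across libraries were outside heme metabolism. Of 13439 candidates with mean CPM of 1 or more, those with the highest r with Hmox1 over all 9 libraries were Nupr1 (0.989), a stress-induced nuclear protein, Angpt2 (0.983), a ligand of the endothelial Tie2 receptor, S100a11 (0.981), a calcium-binding protein, Efemp2 (0.980), an elastic fibre protein, and Ecel1 (0.979), a neuronal protease. The hemoglobin sum had 0.725 by this measure, which includes the differences between groups. For deviations from group means the leading genes were Irf8 (0.960), a transcription factor of microglia and macrophages, Egln3 (0.949), an oxygen-sensing prolyl hydroxylase, Pknox2 (0.948), Map2k3os (0.945) and Jmjd6 (0.942). Over all 9 libraries the genes most like the hemoglobin sum were Arpc1a (0.964), a subunit of the actin-branching Arp2/3 complex, Ctsa (0.952), a lysosomal protease, Hilpda (0.949), a lipid droplet protein induced by hypoxia, Mgat2 (0.941) and Ier3 (0.937). For deviations of the hemoglobin sum they were Plin2 (0.988), a lipid droplet coat protein, Tmbim1 (0.975), Rbm19 (0.969), Plat (0.961), tissue plasminogen activator, and Csrp1 (0.959). These values rank genes in 9 libraries that share group differences and the outlying PBS libraries, and carry no test.

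Other genes of red cells and their precursors were compared with the globins. This and all later gene lists were chosen with earlier results of these data known. Their calls and p-values are therefore a description and no independent support. Of 20 listed erythroid and red cell genes 19 had a row and 7 passed the filter on low counts, of which 0 rose and 0 fell in each of the 3 comparisons by edgeR. The background in PBS versus Normoxic was 4.31% of tested genes higher and 2.03% lower, and in Gel versus Normoxic 1.12% higher and 0.288% lower. The median log2 fold change of the 7 was -0.13 for PBS versus Normoxic, beside 0.01 over all tested genes. The erythroid markers Slc4a1, Epb42, Ahsp, Gata1 and Kel, with Tspo2, Nfe2 and Car1, had at most 12 counts in any library, and together 11, 15 and 4 counts in Gel, 10, 3 and 24 in PBS, and 19, 11 and 5 in Normoxic. Sptb, Ank1 and Tfr2, which other tissues also express, held 98.3% to 99.3% of the list's summed CPM of 280 to 334 in Gel, 206 to 345 in PBS and 333 to 364 in Normoxic. The globin and Alas2 RNA thus came with almost no RNA of these 8 low genes, in PBS 1 and PBS 3 too. The other globins had no high values in PBS 1 and PBS 3. Their summed level, mostly that of cytoglobin (Cygb), was 166 to 177 CPM in Gel, 184 to 188 CPM in PBS and 202 to 215 CPM in Normoxic, without overlap between groups. The list's median log2 fold change was -0.04 for PBS versus Normoxic and -0.26 for Gel versus Normoxic. Neuroglobin (Ngb), the neuronal globin, was at 5.29, 4.65 and 3.80 CPM in Gel, 4.40, 4.67 and 4.05 CPM in PBS and 4.54, 4.65 and 4.31 CPM in Normoxic, and 0 of the 3 tested members of that list rose or fell by edgeR in any comparison (DESeq2 called Cygb, named after its values were seen, lower in Gel versus Normoxic, adjusted p = 0.0493).

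The composition of libraries moved with part of these values. The Spearman correlation across genes between length and a library's difference from its own group was 0.317, -0.294 and -0.196 in Gel 1 to 3, 0.320, 0.411 and -0.486 in PBS 1 to 3, and -0.0454 to 0.0296 in Normoxic, where a positive value means that longer genes were higher (genes are not independent replicates). Gel 1 and PBS 2, with the most positive value of Gel and of PBS, had the lowest hemoglobin sum of their group. PBS 3 had the highest share of counts on ribosomal protein genes, 2.86%, against 1.16% to 1.78% in the other 8 libraries, and its 669 genes under 800 bases had a median log2 difference from the Normoxic mean of 0.75, against -0.12 to 0.25 in the other 5 OIR libraries. The hemoglobin transcripts are short, at 559 to 639 bases, beside 1576 bases for Hmox1 and 1984 bases for Alas2. PBS 1 had a median of 0.00197 for short genes and a hemoglobin sum 3.13 times the Normoxic mean. The part of transcript length in these values was not tested.

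Cell type markers were compared with the pattern of Hmox1. Microglia and macrophage genes, which belong to cells that take up heme and hemoglobin, had a summed level over all 15 of 119 to 157 CPM in Gel, 162 to 237 CPM in PBS and 66.0 to 75.4 CPM in Normoxic, with 11 higher and 1 lower in PBS versus Normoxic and 6 higher and 1 lower in Gel versus Normoxic by edgeR. Leaving out single libraries changed the number higher to between 7 and 12 in PBS versus Normoxic and between 1 and 10 in Gel versus Normoxic. This sum separated the groups in the same order as Hmox1, but within PBS it was 166, 162 and 237 CPM, highest in PBS 3, where Hmox1 was highest in PBS 1. Neutrophil markers were near 0, at 0 to 0.208 CPM in Gel, 0.0682 to 0.619 CPM in PBS and 0 to 0.154 CPM in Normoxic over the 6 with a row, and 0 of them passed the filter. Platelet genes summed to 18.4 to 21.9 CPM in Gel, 13.8 to 22.6 CPM in PBS and 21.5 to 23.5 CPM in Normoxic, and endothelial genes to 393 to 409 CPM in Gel, 356 to 409 CPM in PBS and 347 to 388 CPM in Normoxic. Of the 10 endothelial genes, 6 rose and 1 fell in PBS versus Normoxic and 2 rose and 0 fell in Gel versus Normoxic by edgeR (3 to 6 and 1 to 6 higher over the alternatives), with median log2 fold changes of 0.78 and 0.69. Beside these and the microglia calls, 4.31% of all tested genes were higher and 2.03% lower in PBS versus Normoxic. In Gel versus Normoxic the shares were 1.12% and 0.288%. Pigment epithelium genes, which mark carry-over of the layer behind the retina, were at 137 to 216 CPM in Gel, 56.1, 55.2 and 205 CPM in PBS 1 to 3 and 22.6 to 91.4 CPM in Normoxic, with PBS 3, the library with the most hemoglobin RNA, apart from its group. Rod genes, at 56056 to 79081 CPM in every library, mark the tissue as retina. The part of these cell types in the Hmox1 and hemoglobin levels was not tested.

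Heme synthesis genes changed little. Of 14 heme synthesis genes 1 rose and 0 fell in PBS versus Normoxic by edgeR, namely Clpx (log2 fold change 0.47 ± 0.12, adjusted p = 0.0466), whose product unfolds the Alas enzyme for activation. That call was lost when any 1 of the 9 libraries was left out, with an adjusted p between 0.0501 and 0.183. Without PBS 3 edgeR called another gene of the list, the mitochondrial iron importer Slc25a37 (log2 fold change 1.11, adjusted p = 0.0107), named here after its values were seen. Alas1, the housekeeping enzyme that starts heme synthesis outside the erythroid line, had a log2 fold change of -0.05 ± 0.14 (adjusted p = 0.844). The median of the 14 was 0.04 for PBS versus Normoxic. Of all tested genes, 4.31% were higher and 2.03% lower in that comparison.

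Of 14 tested genes of heme and hemoglobin uptake, transport and scavenging, 2 rose and 0 fell in PBS versus Normoxic, and 0 changed in either other comparison by edgeR. Shares over all tested genes were 4.31% higher and 2.03% lower in PBS versus Normoxic, and 1.12% and 0.288% in Gel versus Normoxic. Hebp1, an intracellular heme-binding protein, had 2.66, 3.39 and 3.14 CPM in Gel, 5.19, 4.23 and 6.95 CPM in PBS and 1.53, 1.85 and 2.22 CPM in Normoxic, with the groups in the same order as Hmox1 and without overlap. Its log2 fold change was 1.56 ± 0.26 for PBS versus Normoxic (edgeR adjusted p = 0.00592), a call that held without any 1 library. Cd163, the macrophage receptor for hemoglobin bound to haptoglobin, was rare: 30 counts were found in Gel, 53 in PBS and 2 in Normoxic, each summed over 3 libraries. The ratio of PBS to Normoxic was 25.4, with an exact Clopper-Pearson 95% interval of 6.71 to 216.0 that covers counting error only (edgeR adjusted p = 0.0171, lost without any 1 Normoxic library). Hpx, the plasma heme scavenger, was at 1.62, 0.617 and 1.04 CPM in Gel, 1.91, 1.74 and 0.535 CPM in PBS and 0.341, 1.08 and 0.359 CPM in Normoxic, with overlap between groups (PBS versus Normoxic, edgeR adjusted p = 0.267).

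Iron genes rose in a few members. Of 21 tested, 3 rose and 0 fell in PBS versus Normoxic, namely Trf, the iron carrier transferrin (log2 fold change 1.91 ± 0.30, edgeR adjusted p = 0.00406), Cp, the ferroxidase ceruloplasmin (1.13 ± 0.19, adjusted p = 0.00608), and Lcn2, which binds iron-loaded siderophores (2.33 ± 0.36, adjusted p = 0.00415). In Gel versus Normoxic 3 rose and 0 fell by edgeR: Lcn2 (3.64 ± 0.37, adjusted p = 0.00138), the ferrireductase Steap4 (3.72 ± 0.51, adjusted p = 0.00651) and Trf (1.47 ± 0.29, adjusted p = 0.0377). Over all tested genes, 4.31% rose and 2.03% fell in PBS versus Normoxic, and 1.12% rose and 0.288% fell in Gel versus Normoxic. Leaving out Normoxic 2 ended the Steap4 call in Gel versus Normoxic (edgeR adjusted p = 0.0512). Leaving out Normoxic 2, Normoxic 3 or any 1 Gel library ended that of Trf (up to 0.187). Lcn2 and Steap4 had higher mean levels in Gel than in PBS, unlike Hmox1. Lcn2 had 36.1, 21.0 and 59.4 CPM in Gel, 21.1, 14.0 and 11.6 CPM in PBS and 2.52, 3.81 and 2.97 CPM in Normoxic. Neither passed between Gel and PBS by edgeR (adjusted p = 0.576 for Lcn2 and 0.303 for Steap4). DESeq2 called both higher in Gel (adjusted p = 0.0272 for Lcn2 and 0.000287 for Steap4), and edgeR without a low-count filter called Steap4 (0.0214).

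The ferritin chains, which store the iron that heme oxygenase frees, did not pass the main edgeR test in PBS versus Normoxic. Ftl1, the light chain, had 264, 344 and 367 CPM in Gel, 441, 357 and 608 CPM in PBS and 285, 312 and 306 CPM in Normoxic, so all 3 PBS libraries exceeded the Normoxic ones (log2 fold change 0.66 ± 0.20, edgeR adjusted p = 0.0819). The Ftl1 call turned on the setting. It passed with DESeq2 (adjusted p = 0.0237), and with edgeR without a low-count filter (0.0333) or without PBS 2 (0.0265). Fth1, the heavy chain, had a log2 fold change of 0.19 ± 0.16 (edgeR adjusted p = 0.514). The exporter Slc40a1 had 0.45 ± 0.20 (adjusted p = 0.223).

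Over all tested genes, 4.31% rose and 2.03% fell in PBS versus Normoxic, and 1.12% rose and 0.288% fell in Gel versus Normoxic. Of 16 tested regulators of Hmox1, a list chosen with earlier results known, 3 rose and 0 fell in PBS versus Normoxic by edgeR. They were Nfe2l2, which encodes NRF2 (log2 fold change 0.73 ± 0.14, adjusted p = 0.0110), and Maff (2.61 ± 0.47, adjusted p = 0.00831) and Mafk (0.66 ± 0.16, adjusted p = 0.0304), small Maf proteins that pair with NRF2 or BACH1 on DNA. Maff had 1.85, 3.45 and 2.64 CPM in Gel, 6.79, 2.62 and 3.55 CPM in PBS and 0.648, 0.369 and 1.11 CPM in Normoxic, highest in PBS 1, as was Hmox1. Each call was lost without some libraries: Nfe2l2 without either of Normoxic 1 and Normoxic 2 (adjusted p reached 0.0586), Maff without Normoxic 1 (0.0506), and Mafk without any 1 Normoxic library, PBS 1, Gel 2 or Gel 3 (up to 0.125). Bach1, the repressor, had 0.16 ± 0.14 (adjusted p = 0.539) and Keap1, which marks NRF2 for degradation, -0.08 ± 0.10 (adjusted p = 0.652). In Gel versus Normoxic 0 rose and 1 fell, the immediate early gene Fos (-1.65 ± 0.31, adjusted p = 0.0304), a call lost without any 1 Normoxic library, Gel 1 or Gel 3 (up to 0.140). The lower Fos level was not confined to Gel. In PBS versus Normoxic Fos failed the main edgeR test but was called lower by DESeq2 (-1.11, adjusted p = 0.00641) and limma-voom (-1.20, adjusted p = 0.0309). In edgeR it passed there without a low-count filter (adjusted p = 0.0101), without PBS 1 (0.00773) or without Gel 1 (0.0416).

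Among 19 other NRF2 target genes, 2 rose and 0 fell in PBS versus Normoxic and 0 changed in Gel versus PBS or Gel versus Normoxic by edgeR. They were Ephx1, a microsomal epoxide hydrolase (1.19 ± 0.25, adjusted p = 0.0191), lost without Normoxic 2 or Normoxic 3 (up to 0.0862), and Osgin1 (1.22 ± 0.30, adjusted p = 0.0380), lost without any 1 Normoxic library, PBS 1, PBS 3, Gel 2 or Gel 3 (up to 0.149). The classical targets Nqo1 (0.19 ± 0.41, adjusted p = 0.817) and Gclm (0.12 ± 0.11, adjusted p = 0.573) had small log2 fold changes in PBS versus Normoxic beside the 4.25 of Hmox1. The median log2 fold change of the 19 was 0.19 for PBS versus Normoxic, beside 0.01 over all tested genes. Shares of all tested genes called were 4.31% higher and 2.03% lower in PBS versus Normoxic, and 1.12% and 0.288% in Gel versus Normoxic.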

How the data were processed

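Bulk RNA sequencing of 9 mouse retina libraries was used, 3 per group. The submitters' processing notes name GRCm39, Bowtie2, DESeq2 1.4.5 and RSEM 1.3.1 without saying what each did. The authors deposited counts per gene as whole numbers, which may be rounded estimates, and a table of FPKM. Each deposited FPKM equals the count divided by library total and 1 length per gene (relative spread at most 2.9e-10), so it served for levels per length. No column belonged to another series. Library totals ran between 29324142 and 35663470 counts, and their number limits precision for low genes. The sources used here do not state the strand of the reads.

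In R 4.3.3, filterByExpr of edgeR 4.0.16 (minimum count 10) kept 17362 of 26683 genes (65.1%). Libraries were scaled by TMM, and 1 quasi-likelihood fit over 9 libraries with group as the only term gave 3 comparisons. P-values were adjusted by Benjamini-Hochberg over all kept genes (threshold 0.05, common dispersion 0.0312). SE is the log2 fold change over the square root of F. Scripts were tested on simulated data. Alternatives were RLE size factors, total counts, no filter, DESeq2 1.42.0, limma 3.58.1 voom, a replicate block and leaving out each library. Correlations used scipy 1.17.1, and alignments Biopython 1.88. The 9 genes and the gene lists were chosen with earlier results of these data known. Named genes are the 9, called list members and others needed to describe a list, and the 5 most alike by each measure. Listed genes without a row, such as Hba-x, Hbb-bh1, Rhag and Ftmt, were not analysed here, and some listed genes are not reported here.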

Additional observations from a re-analysis of the deposited data

How the results depend on the processing

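Counts of calls moved with the processing. PBS versus Normoxic had 1101 calls (67.9% higher), 1936 with DESeq2 (60.1% higher) and 455 to 1184 with 1 library left out (78.1% to 82.0% higher without a Normoxic library). Gel versus PBS had 0 calls, 24 without a filter, 64 with DESeq2 and 0 to 12 with 1 library left out, most without PBS 2. Gel versus Normoxic had 245 calls (79.6% higher), 389 without a filter, 854 with DESeq2 (65.7% higher) and 47 to 735 with 1 library left out, most without PBS 3. The causes were not tested, apart from fewer libraries or another set of tested genes by construction.

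The next counts pool all 3 comparisons of the same 9 libraries. They describe the processing and are no independent support for genes chosen from these data. Of the log2 fold changes of the 9 genes over all alternatives, 360 kept their direction and side of the threshold, 26 newly passed it, 11 no longer did and 8 changed sign. Those 8, all small values, were Hmox2 without PBS 3 (-0.10 in PBS versus Normoxic, 0.030 in Gel versus PBS), Blvra in Gel versus PBS (0.18 without PBS 3, 0.09 without Gel 1), Hmox2 in Gel versus Normoxic (0.090 without Gel 1) and Alas2 in Gel versus Normoxic (0.06 without Normoxic 2, 0.01 without Normoxic 3, 0.26 without Gel 1). With single libraries left out, these log2 fold changes ran up to 0.20 for Hmox2 in PBS versus Normoxic and down to -0.29 for Hmox2 in Gel versus PBS, -0.18 for Blvra in Gel versus PBS, -0.18 for Hmox2 in Gel versus Normoxic and -0.27 for Alas2 in Gel versus Normoxic. The correlation of Hmox1 with the hemoglobin sum ran between -0.455 and 0.935 with 1 library left out, was 0.660 after TMM scaling, and was 0.858 over the 6 OIR libraries without centring, where Hba-a1 (0.889) newly passed. Without PBS 2 it was also negative for Hba-a1 (-0.0676), Hba-a2 (-0.588), Hbb-bs (-0.520), Hbb-bt (-0.636) and Alas2 (-0.131), and without PBS 1 and PBS 3 for Hba-a1 (-0.057) and Hba-a2 (-0.517). The highest values with 1 library left out were 0.834 for Hba-a1, 0.932 for Hba-a2 and 0.943 for Hbb-bs, all without PBS 3, and 0.852 for Hbb-bt and 0.748 for Alas2, both without PBS 1. The ratios among hemoglobin genes kept their order with FPKM (median Hbb to Hba ratio 1.25 in place of 1.42). This is no separate check, because each FPKM is the count rescaled by library total and 1 length per gene.

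Correlations of deviations between same-numbered libraries of different groups ran between -0.209 and 0.362. PBS 3 with Gel 3 (0.362) and PBS 1 with Gel 1 (0.326) were the highest of all, and PBS 2 with Gel 2 (-0.209) the lowest of the same-numbered ones. This check does not settle whether the numbers pair the samples. With the replicate number as a block, PBS versus Normoxic had 1050 calls, Gel versus PBS 0 and Gel versus Normoxic 227, and not every library correlated best with its own number. At this depth Alas2 (20 counts in Gel 1) was the least precisely counted of the 9 genes.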
